A study of Homo sapiens with 6 samples.

Results

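The KLHL and KBTBD genes encode proteins that bring substrates to the cullin-3 ubiquitin ligase. The family was taken as all probe sets of the array whose only annotated gene symbol starts with KLHL or KBTBD followed by a digit, antisense transcripts left out. Where a gene had several probe sets, the brightest one on average over the 6 arrays stood for it. This gave 42 genes of 19775, 34 KLHL and 8 KBTBD, read by 98 probe sets. The cells were SW-1990, an established human pancreatic adenocarcinoma line grown from a splenic metastasis. A lentivirus gave them a short hairpin RNA (shRNA) that targets the prolactin receptor gene PRLR (sh-PRLR, 3 Affymetrix U133 Plus 2.0 arrays), or a scrambled shRNA (sh-Ctrl, 3 arrays). Both groups had been kept in puromycin at 1 µg/ml for over 7 days. The labels call the arrays of a group biological replicates without saying whether they came from separate infections, and they do not say how many hairpins were used.

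Most members share a BTB domain, which binds cullin-3, a BACK domain that follows it, and a propeller of kelch repeats that holds the substrate. Cullin-3 in turn carries RBX1, which recruits the ubiquitin-loaded enzyme, and the ligase is switched on by the ubiquitin-like protein NEDD8. Each adaptor therefore decides which proteins the same ligase marks, and the best known relative is KEAP1, the adaptor for the stress factor NRF2 (gene NFE2L2).

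In sh-PRLR cells, KLHL24, KLHL28, KLHL15, KLHL7 and KLHL9 rose and KBTBD7 fell, by log2 differences between -0.35 and 0.46. These 6 passed an adjusted p of 0.05 in limma, as did 7.66% of all genes. All 6 were among the 28 members brighter than the median gene, and 14.6% of genes that bright passed. With default eBayes settings, or with each array centred on its median, 0 of the 42 passed. KLHL24, which targets intermediate filament proteins such as keratin 14, was higher by all 5 of its probe sets, and by 0.91 at one of them. KBTBD7, which acts with KBTBD6 on the Rac activator TIAM1, was lower by all 3 of its probe sets by nearly the same amount. KLHL5, an actin-binding relative, was lower at a pair of its probe sets while its brightest one differed by -0.01. Outside the KLHL and KBTBD symbols, ENC1, a BTB-kelch protein of the actin cytoskeleton, fell by 0.76 on the log2 scale.

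The upstream 250 bases of KLHL24, KLHL28 and KLHL15 are shown because these genes rose and the first and second did so by more than 1 probe set. The windows are RefSeq sequences of GRCh38.p14, written 5′ to 3′ on the strand of the gene and ending at the base before its start. They lie at chr3:183635373-183635622 on the plus strand, chr14:44961486-44961735 on the minus strand and chrX:24027187-24027436 on the minus strand. Capitals mark an AP-1 match (TGANTCA) in KLHL24 and an antioxidant response element match (TGACNNNGC, here on the opposite strand) in KLHL15.
KLHL24: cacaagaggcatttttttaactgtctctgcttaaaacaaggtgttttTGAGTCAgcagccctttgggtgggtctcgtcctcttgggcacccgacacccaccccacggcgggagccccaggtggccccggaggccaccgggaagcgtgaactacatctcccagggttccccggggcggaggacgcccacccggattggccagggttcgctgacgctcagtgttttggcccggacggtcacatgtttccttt
KLHL28: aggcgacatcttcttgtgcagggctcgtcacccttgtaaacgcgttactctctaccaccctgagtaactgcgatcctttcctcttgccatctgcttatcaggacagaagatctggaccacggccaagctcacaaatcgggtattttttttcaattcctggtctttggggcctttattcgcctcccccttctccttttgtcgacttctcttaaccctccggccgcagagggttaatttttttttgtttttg
KLHL15: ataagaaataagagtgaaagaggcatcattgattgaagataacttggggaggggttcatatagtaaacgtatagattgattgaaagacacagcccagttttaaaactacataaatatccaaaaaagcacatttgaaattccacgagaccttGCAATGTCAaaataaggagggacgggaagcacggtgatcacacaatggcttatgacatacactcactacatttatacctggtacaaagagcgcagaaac

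The AP-1 match of KLHL24 began 203 bases before the start, and 6.57% of 35116 promoters held this motif in the same window. The antioxidant response element match of KLHL15 began 99 bases before its start, against 10.9% of all promoters. The promoter table held 35 of the 42 members with 45 windows, among them 6 windows of 5 of the 6 changed genes. The STAT5-type motif TTCNNNGAA (6.57% of all promoters), the forkhead motif GTAAACA (2.98%) and the E-box CACGTG (6.34%) had no match in those 6 windows. The cyclic AMP response element TGACGTCA (1.65%), the NRF1 motif (1.03%), the ETS motif CCGGAAG (8.52%) and the E2F motif TTTCGCGC (0.439%) had none there either. Both strands were searched, and one stretch of bases could count for more than 1 motif. Among all 45 windows the STAT5-type and forkhead motifs each occurred once, in KLHL3, and the E2F motif occurred in KBTBD6 and KLHL36. The antioxidant response element occurred in 7 of them and AP-1 in 4, each including KLHL12, KLHL21 and KLHL40, which did not pass. The ETS motif occurred in 4, the E-box in 2, the cyclic AMP response element in 1 and the NRF1 motif in 0. A match of letters describes the sequence and does not show that a factor binds.

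All values are deposited log2 signals, each difference is sh-PRLR minus sh-Ctrl, and a value after ± is the SD over 3 arrays. PRLR, the targeted gene, checked the labels: averaged over 7 probe sets it read 3.94, 4.38 and 4.19 in sh-PRLR, against 5.23, 5.03 and 4.79 in sh-Ctrl. Every sh-PRLR array lay below every sh-Ctrl array, by -0.85 on average (p = 0.1 by an exact permutation test, two-sided, which cannot give less with so few arrays). No single PRLR probe set passed an adjusted p of 0.05 in limma. Read by its brightest probe set, 227629_at, as the members were, PRLR differed by -0.23 with overlapping groups. All 7 probe sets had means below 5.93, the limit of the 40% dimmest genes, so this check rests on low signals. Arrays correlated at 0.992 to 0.994 within groups and at 0.984 to 0.986 between groups over genes above the median signal. The labelled epithelial origin was borne out by EPCAM, CDH1, KRT8, KRT18 and KRT19, with means between 12.65 and 15.29. KRT7, another ductal keratin, had a mean of 7.64. Of these 6 markers CDH1, E-cadherin, fell slightly in sh-PRLR (-0.17, limma adjusted p = 0.0284), and its part in the results below was not tested. Summed on the linear scale and put back to log2, the 5 fibroblast markers lay between 8.52 and 8.66 in sh-PRLR and between 8.54 and 8.57 in sh-Ctrl, and the 4 leukocyte markers between 8.23 and 8.83 in sh-PRLR and between 7.96 and 8.50 in sh-Ctrl. The 4 endothelial markers lay between 7.51 and 7.98 in sh-PRLR and between 7.42 and 7.56 in sh-Ctrl, and the 5 skeletal muscle markers between 7.76 and 7.78 in sh-PRLR and between 7.53 and 8.05 in sh-Ctrl. None of these markers of other cell types passed the test, and their part in the results below was not tested. In bulk RNA, fewer cells of one kind and less RNA per cell cannot be told apart.

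Of the 42 genes, 5 rose and 1 fell by limma with an intensity-dependent variance (adjusted p under 0.05 over all genes). Of all 19775 genes, 3.34% rose and 4.32% fell, 7.66% in all. The median gene had a mean signal of 7.23, and dim genes were rarely called, so the brighter members are better read against genes as bright. All 6 changed genes were among the 28 members above that level, where 14.6% of genes passed, 6.43% higher and 8.17% lower. Groups did not overlap for 15 of the 42 genes, against 25.8% of all genes, and for 12 of the 28 brighter ones, against 38.9%. The median difference was 0.07 over the 42 genes and 0.00 over all genes, and 23 members were higher and 19 lower. An unadjusted p under 0.05 was reached by 12 of the 42, against 20.3% of all genes. With default eBayes settings 0 of the 42 passed, as did 4 of all 19775 genes (0.0202%), although 10 members had an unadjusted p under 0.05 there. Centring each array on its median also left 0 of the 42, and 143 genes higher and 363 lower among all genes in place of 660 and 854; 9 members then had an unadjusted p under 0.05.

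**Figure D1:**
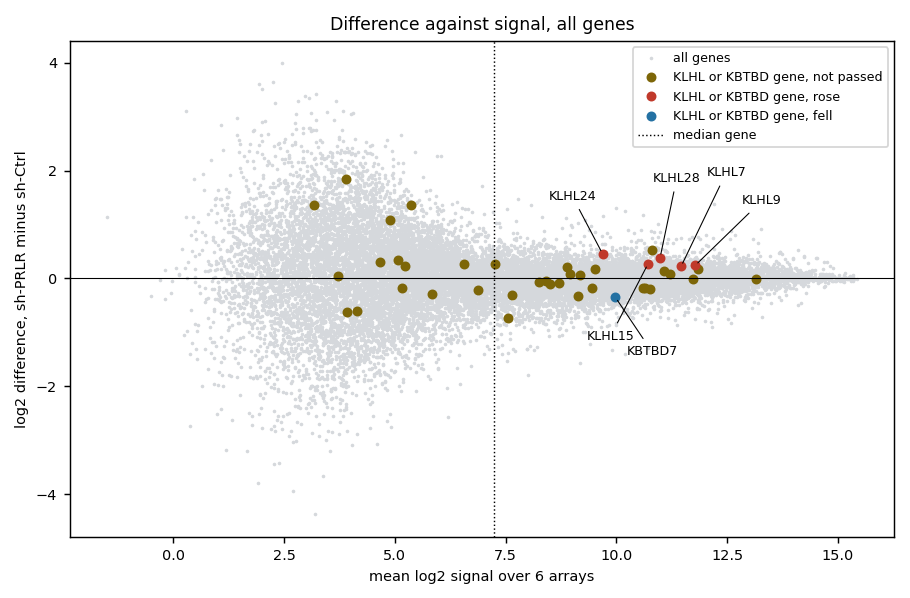
Each grey point is 1 of 19775 genes, with its mean log2 signal over 6 arrays on the horizontal axis and its log2 difference (sh-PRLR minus sh-Ctrl) on the vertical axis, and larger points are the 42 KLHL and KBTBD genes. The scatter widens below the median gene at 7.23 (dotted line), and the 6 named genes that passed all lie above it.

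The count of changed members was lower whenever 1 array was left out, and so was that of all genes. Of the 42 members, 4, 1 and 3 passed without sh-PRLR replicates 1, 2 and 3, and 1, 0 and 3 without sh-Ctrl replicates 1, 2 and 3. Of all 19775 genes, 1514 passed with every array kept. Without sh-PRLR replicates 1, 2 and 3 there were 1322, 859 and 948. Without sh-Ctrl replicates 1, 2 and 3 there were 821, 665 and 893. Without sh-Ctrl replicate 2, KLHL24 had an adjusted p = 0.0622 and KBTBD7 an adjusted p = 0.0556 in limma, with differences of 0.38 and -0.36.

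KLHL24 is known for the turnover of intermediate filaments, and mutations that stabilise it cause a skin blistering disease. Its brightest probe set, 221985_at, read 9.96, 9.88 and 9.91 in sh-PRLR, against 9.46, 9.31 and 9.60 in sh-Ctrl. The groups did not overlap, and the difference was 0.46 (SE 0.09, limma adjusted p = 0.0136, fold 1.37). Probe set 226158_at gave a wider gap, with 9.84, 10.09 and 9.82 in sh-PRLR, against 8.91, 8.94 and 9.18 in sh-Ctrl. The difference there was 0.91, with an adjusted p = 0.00132 in limma over 41091 probe sets, of which 4.67% passed. Probe set 221986_s_at read 9.44, 9.60 and 9.59 in sh-PRLR and 8.98, 8.89 and 8.98 in sh-Ctrl (0.59, limma adjusted p = 0.00505). The remaining probe sets, 242088_at (0.48) and 206551_x_at (0.33), were higher on average without passing. Tested one by one, 226158_at and 221986_s_at passed in 9 of 10 other settings, default eBayes being the exception for both (adjusted p = 0.129 and 0.147). The probe set that stands for the gene, 221985_at, passed in 3 of 10, with limma adjusted p up to 0.234 over probe sets.

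KLHL28, a member whose substrates are little known, read 11.34, 11.23 and 10.97 in sh-PRLR, against 10.71, 10.76 and 10.91 in sh-Ctrl. The groups were close at their edges, with the lowest sh-PRLR array just above the highest sh-Ctrl array, and the difference was 0.39 (SE 0.09, limma adjusted p = 0.0321). Its probe set 235727_at read 9.37, 9.35 and 9.22 in sh-PRLR and 8.62, 8.77 and 8.996 in sh-Ctrl (0.52, limma adjusted p = 0.0305 over probe sets). The dimmest one, 220374_at, differed by 0.31 without passing. KLHL15 directs the loss of a regulatory subunit of phosphatase PP2A and of the DNA end resection factor CtIP (gene RBBP8). It read 10.81, 10.87 and 10.87 in sh-PRLR, against 10.59, 10.52 and 10.62 in sh-Ctrl, all sh-PRLR arrays being higher (0.27, SE 0.06, limma adjusted p = 0.0243). It was read by 1 probe set.

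KLHL7, an adaptor found in the nucleus and mutated in an inherited retinal degeneration, read 11.55, 11.61 and 11.56 in sh-PRLR, against 11.34, 11.30 and 11.40 in sh-Ctrl. That is a small but clean separation of 0.22 (SE 0.05, limma adjusted p = 0.0334). Its other probe sets, 223250_at and 220238_s_at, differed by 0.04 and 0.16 without passing, so the rise rests on 1 of 3 probe sets. KLHL9 works with KLHL13 to take the kinase Aurora B off mitotic chromosomes. KLHL9 read 11.90, 11.93 and 11.87 in sh-PRLR, against 11.74, 11.70 and 11.54 in sh-Ctrl (0.24, SE 0.06, limma adjusted p = 0.0426). The gap between groups was of the size of the spread among sh-Ctrl arrays. Over all probe sets its limma adjusted p was 0.0595, and probe set 213117_at differed by 0.01. Without _x_at and _s_at probe sets, KLHL9 was represented by that one and no longer passed.

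KBTBD7 was the 1 member that fell. It read 9.84, 9.76 and 9.81 in sh-PRLR, against 10.16, 10.14 and 10.17 in sh-Ctrl, so that both groups were tight and apart (-0.35, SE 0.07, limma adjusted p = 0.0123). Probe sets 229298_at and 229970_at were lower by -0.37 and -0.36 without passing over probe sets (limma adjusted p = 0.0798 and 0.0868), and their groups did not overlap either. Its partner KBTBD6 read 10.64, 10.60 and 10.45 in sh-PRLR, against 10.81, 10.82 and 10.57 in sh-Ctrl, with overlapping groups (-0.17, limma adjusted p = 0.307). Both KBTBD6 probe sets were lower on average, by -0.17 and -0.18. TIAM1, the exchange factor for Rac that both adaptors target, read 9.23, 9.58 and 9.49 in sh-PRLR, against 9.84, 9.89 and 9.73 in sh-Ctrl, and fell (-0.39, SE 0.10, limma adjusted p = 0.0471). Over all probe sets its limma adjusted p was 0.0645, and its dim second probe set, 206409_at, overlapped between groups (-0.24). The array reads transcripts, so the stability of the TIAM1 protein was not measured.

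**Figure D2:**
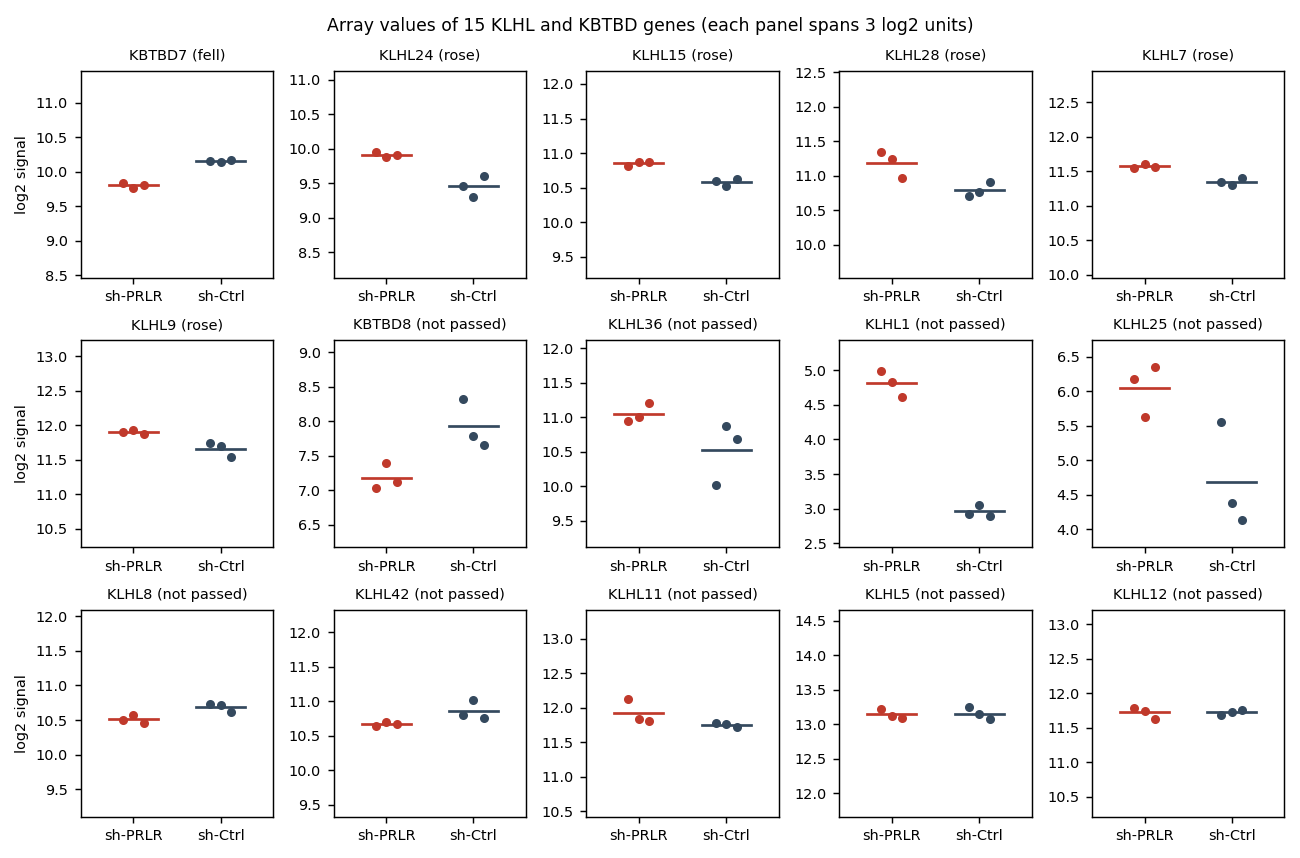
Each panel plots the log2 signal of 1 gene on each array, sh-PRLR on the left and sh-Ctrl on the right, with a line at the mean of 3 arrays, and every panel spans 3 log2 units. The first 6 panels are the genes that passed, whose groups do not overlap, though those of KLHL28 and KLHL9 come close, while KLHL1 and KLHL25 at the low end of the signal differ more and did not pass.

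KLHL5 had the highest signal of the 42 genes, and its probe sets disagreed. The brightest, 226001_at, read 13.23, 13.13 and 13.09 in sh-PRLR, against 13.25, 13.15 and 13.07 in sh-Ctrl (difference -0.01, 95% interval -0.14 to 0.12 in the gene fit). Probe set 232297_at read 10.19, 10.12 and 10.11 in sh-PRLR, against 10.53, 10.71 and 10.61 in sh-Ctrl, a difference of -0.48 with no overlap (limma adjusted p = 0.0046 over probe sets). Probe set 227565_at read 9.95, 9.73 and 9.65 in sh-PRLR and 10.15, 10.27 and 10.55 in sh-Ctrl (-0.54, limma adjusted p = 0.0233). The dimmer 220682_s_at (0.15) and 233866_at (0.35) went the other way without passing. Which transcripts each probe set reads was not examined here. The lower value of 232297_at passed in 9 of 10 other settings, all except default eBayes (adjusted p = 0.185). That of 227565_at passed in 3 of 10, with limma adjusted p up to 0.273.

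**Figure D3:**
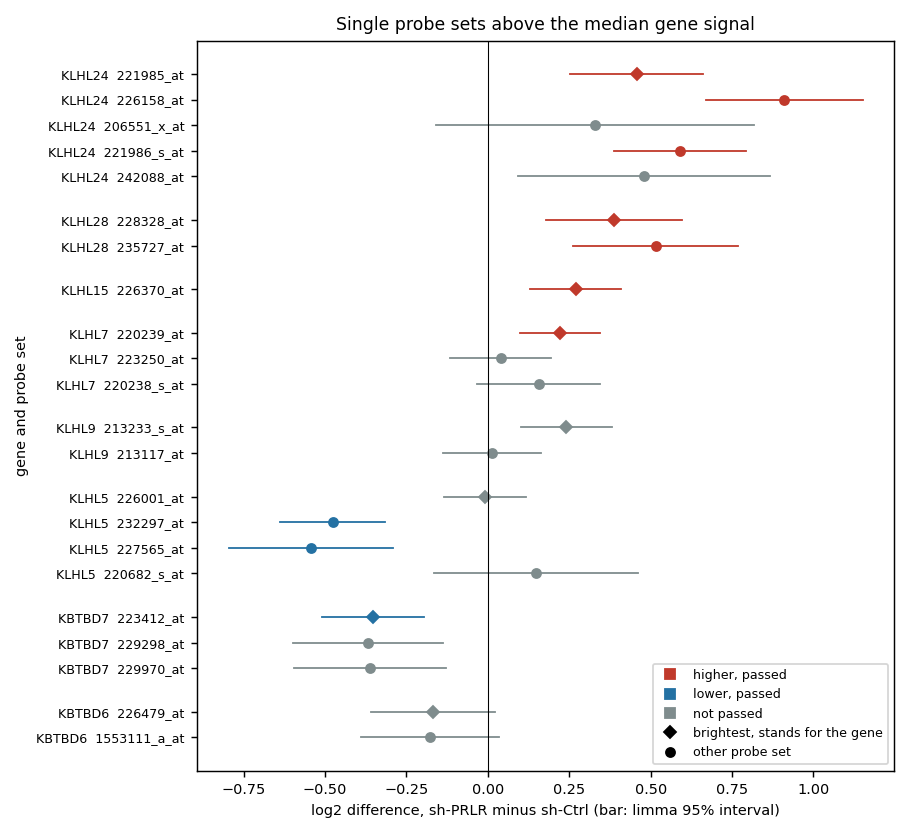
Points are log2 differences (sh-PRLR minus sh-Ctrl) of single probe sets above the median gene signal, with limma 95% intervals as bars, for the 6 changed genes, KLHL5 and KBTBD6. The 5 KLHL24 probe sets lie to the right of 0 and the 3 KBTBD7 probe sets to the left, whereas for KLHL5 a pair of probe sets lies near -0.5 and the brightest at -0.01.

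KLHL13, KLHL21, KLHL18, KLHL22 and KLHL42, which like KLHL9 have roles in cell division, did not pass. KLHL13, the partner of KLHL9, was dim and differed by -0.17, and KLHL21, which acts on Aurora B in the spindle midzone, differed by 0.05. KLHL18, an adaptor linked to Aurora A, read 9.23, 9.46 and 9.41 in sh-PRLR and 9.44, 9.66 and 9.52 in sh-Ctrl (-0.17, limma adjusted p = 0.367). KLHL22, which removes the kinase PLK1 from kinetochores, differed by -0.05. KLHL42, an adaptor for the microtubule-severing enzyme katanin, read 10.64, 10.70 and 10.67 in sh-PRLR, against 10.80, 11.01 and 10.76 in sh-Ctrl. Its groups did not overlap, but the difference of -0.19 missed the threshold (limma adjusted p = 0.182). Its other probe sets, 225963_at and 225961_at, differed by 0.05 and -0.15 with overlapping groups.

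KLHL12, KLHL20, KBTBD2, KLHL2, KLHL3 and KLHL25 did not pass. KLHL12, which promotes large COPII vesicles through SEC31A, read 11.79, 11.74 and 11.63 in sh-PRLR, against 11.68, 11.73 and 11.76 in sh-Ctrl. The difference was -0.00 with a 95% interval of -0.13 to 0.12, so changes beyond about that size lie outside the interval. KLHL20, which acts on autophagy and the kinase DAPK1, differed by -0.32 (limma adjusted p = 0.259), and its probe sets split, 2 of 4 sharing that sign. Those 2 were the ones above the median gene signal. KBTBD2, which controls the p85 subunit of PI3 kinase, differed by 0.13. KLHL2, which with KLHL3 degrades the WNK kinases of salt transport, differed by 0.08, and KLHL3 by -0.22 at a low signal. KLHL25, linked to the lipid enzyme ACLY, read 6.18, 5.63 and 6.35 in sh-PRLR and 5.56, 4.38 and 4.13 in sh-Ctrl, a wide but scattered gap of 1.37 (SE 0.50, limma adjusted p = 0.141).

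KBTBD8 came nearest to the threshold from outside. It modifies the nucleolar proteins TCOF1 and NOLC1 in neural crest specification. It read 7.03, 7.40 and 7.12 in sh-PRLR, against 8.32, 7.79 and 7.66 in sh-Ctrl, each sh-PRLR array being lower (-0.74, SE 0.20, limma adjusted p = 0.0541). The sh-Ctrl arrays were spread by almost as much as the gap to sh-PRLR. Without the 40% of genes at the lowest signal, and so with fewer tests, its adjusted p was 0.0265. KLHL36 read 10.95, 11.001 and 11.21 in sh-PRLR, against 10.02, 10.88 and 10.69 in sh-Ctrl, where replicate 1 lay far below its group (0.52, SE 0.18, limma adjusted p = 0.110). All 3 of its probe sets were higher on average.

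KLHL8 read 10.50, 10.58 and 10.46 in sh-PRLR, against 10.73, 10.72 and 10.61 in sh-Ctrl, a narrow separation of -0.18 (limma adjusted p = 0.156) shared in sign by all 3 probe sets. In the worm its relative KEL-8 acts on the clustering of neurotransmitter receptors. KLHL11, known as an autoantigen, read 12.12, 11.83 and 11.81 in sh-PRLR, against 11.78, 11.77 and 11.72 in sh-Ctrl, where sh-PRLR replicate 1 stood above the rest (0.17, limma adjusted p = 0.265).

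None of the 14 members below the median gene passed. KLHL40, KLHL41 and KLHL31, which support the sarcomere or muscle formation, differed by 1.36, 0.23 and 0.27 with SE of 1.13, 0.53 and 0.26. KLHL10 of spermatids differed by -0.29 and KLHL6 of B cells by -0.62. KLHL1, a neuronal actin-binding protein, read 4.99, 4.83 and 4.61 in sh-PRLR, against 2.93, 3.06 and 2.89 in sh-Ctrl. Each group was tight there, but the test uses the spread of genes at that signal, which gave an SE of 0.68 and a limma adjusted p = 0.140 for a difference of 1.85. Its second probe set read between -0.35 and 4.38 in sh-PRLR and between -0.09 and 2.50 in sh-Ctrl, with overlapping groups. The other dim members, KLHL4, KLHL14, KLHL32, KLHL34 and KBTBD12, differed by between -0.60 and 1.08 without passing. Over the 14 members below the median gene the replicate SD had a median of 0.81, against 0.11 over the 28 above it.

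The brighter members not yet named were KLHL17, KLHL23, KLHL26, KLHL29, KLHL35, KBTBD3, KBTBD4 and KBTBD11. KBTBD4 is the adaptor whose mutant forms degrade the CoREST complex in a brain tumour, and it differed by -0.08. KLHL17, an actin-binding protein of neurons, had sh-PRLR arrays of 7.43, 7.32 and 7.47, all above the sh-Ctrl arrays of 7.06, 7.05 and 7.28, without passing (0.27, limma adjusted p = 0.438). The others differed by between -0.32 in KLHL35 and 0.21 in KLHL23. Over all 22 brighter members that did not pass, differences ran from -0.74 to 0.52, and a p above the threshold does not show that they were equal.

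**Figure D4:**
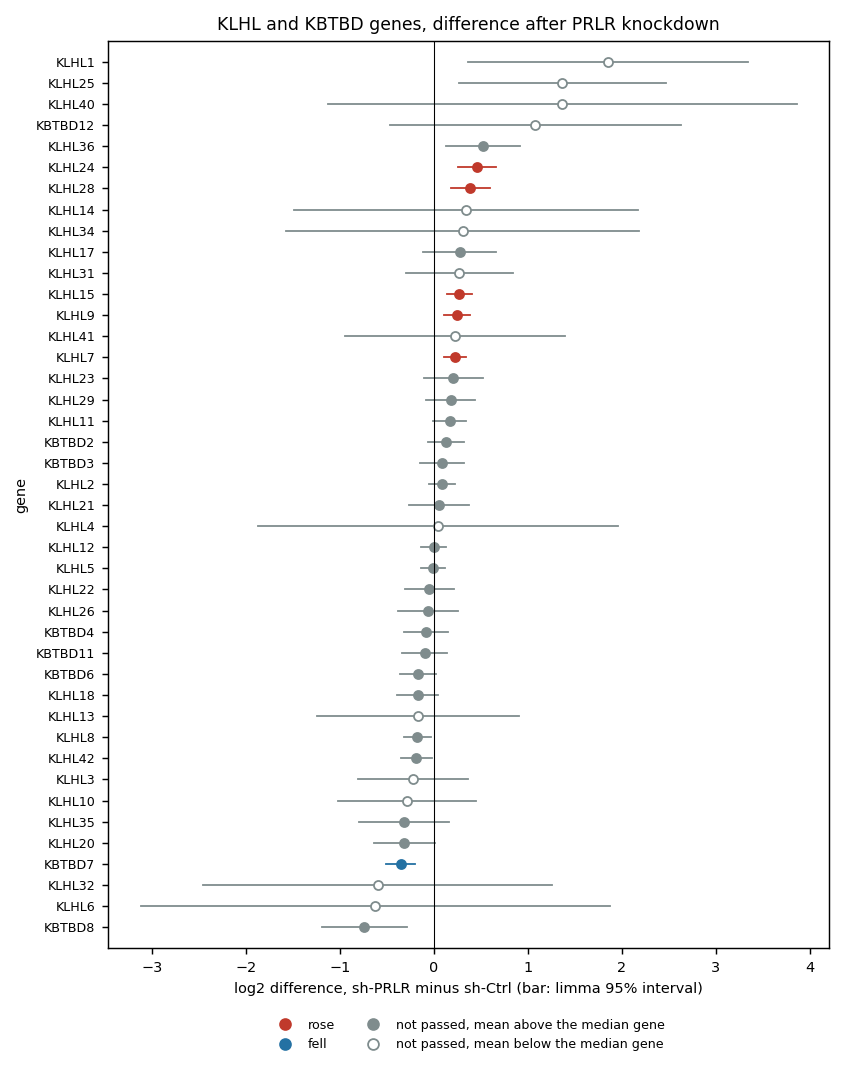
Points are log2 differences (sh-PRLR minus sh-Ctrl) of the 42 genes in order of size, with limma 95% intervals as bars and open circles for genes below the median gene signal. The changed genes lie between -0.35 and 0.46 with short bars, and the largest differences, KLHL1 at 1.85 among them, are dim genes with long bars.

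Among 5 measured BTB-kelch genes with other symbols, all above the median gene, ENC1 fell and the others did not pass. Of genes above that level 8.17% fell, and of all genes 4.32%. ENC1 read 12.19, 12.13 and 12.11 in sh-PRLR, against 12.82, 12.94 and 12.93 in sh-Ctrl. That gap of -0.76 (SE 0.05, limma adjusted p = 3.17e-05, fold 0.592) was far wider than either group's spread. Its second probe set, 201340_s_at, read 8.23, 8.41 and 8.27 in sh-PRLR and 9.19, 9.06 and 9.22 in sh-Ctrl (-0.85, limma adjusted p = 0.00163 over probe sets). KEAP1 differed by -0.11 (limma adjusted p = 0.475), with a sh-PRLR mean of 10.54 ± 0.11 and a sh-Ctrl mean of 10.64 ± 0.02. IVNS1ABP, IPP and LZTR1 differed by -0.09, -0.02 and -0.25.

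Of 26 measured genes of the cullin-3 machinery and the NEDD8 cycle, 1 rose and 1 fell, and the median difference was 0.01. Of these, 25 lay above the median gene, where 6.43% of genes rose and 8.17% fell. CUL3 read 13.21, 13.14 and 13.07 in sh-PRLR, against 13.16, 13.21 and 13.23 in sh-Ctrl (-0.06, limma adjusted p = 0.551), and RBX1 differed by -0.05. DCUN1D1, which helps to attach NEDD8 to cullins, read 11.77, 11.78 and 11.75 in sh-PRLR, against 11.47, 11.49 and 11.37 in sh-Ctrl, clear of each other, and rose (0.32, limma adjusted p = 0.00578). GLMN, which binds RBX1 and masks it, read 9.68, 9.85 and 9.80 in sh-PRLR, against 10.15, 10.37 and 10.11 in sh-Ctrl, and fell (-0.43, limma adjusted p = 0.0152).

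Of 14 measured cullin-3 adaptors of other families, 2 rose and 2 fell, with a median of -0.01. Of all genes 7.66% passed, and of genes above the median level, where 9 of the 14 lay, 14.6%. KCTD13, which acts on the GTPase RhoA, read 8.23, 8.40 and 8.12 in sh-PRLR, against 7.45, 7.63 and 7.72 in sh-Ctrl (0.65, limma adjusted p = 0.0237). SPOPL, a relative of the adaptor SPOP, read 10.03, 10.08 and 10.18 in sh-PRLR, against 9.73, 9.73 and 9.69 in sh-Ctrl (0.38, limma adjusted p = 0.0119). Both pairs of groups were apart. KCTD6 fell by 0.37 on the log2 scale (limma adjusted p = 0.00799), and RHOBTB3 fell by 0.19 just inside the threshold (limma adjusted p = 0.0498).

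Of 36 measured substrates or partners reported for these adaptors, 2 rose and 3 fell, with a median of 0.04. With 27 of the 36 above the median gene, where 14.6% of genes passed, this count was near that of genes as bright. Besides TIAM1, HDAC1, a deacetylase of the CoREST complex, fell (-0.37, limma adjusted p = 0.00278), and so did ACLY, which makes acetyl-CoA for lipids (-0.25, limma adjusted p = 0.0345). WNK1, a kinase targeted by KLHL2 and KLHL3, rose (0.24, limma adjusted p = 0.0274), as did AURKA, Aurora A (0.26, limma adjusted p = 0.0203). AURKB, the substrate of KLHL9, differed by -0.13, and NFE2L2, that of KEAP1, by 0.12 (limma adjusted p = 0.119). KRT14, the gene of the KLHL24 target keratin 14, was dim in these cells, with a mean of 3.93 and overlapping groups. The KBTBD8 partners TCOF1 and NOLC1 differed by -0.29 and -0.12 without passing (limma adjusted p = 0.0866 and 0.208).

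**Figure D5:**
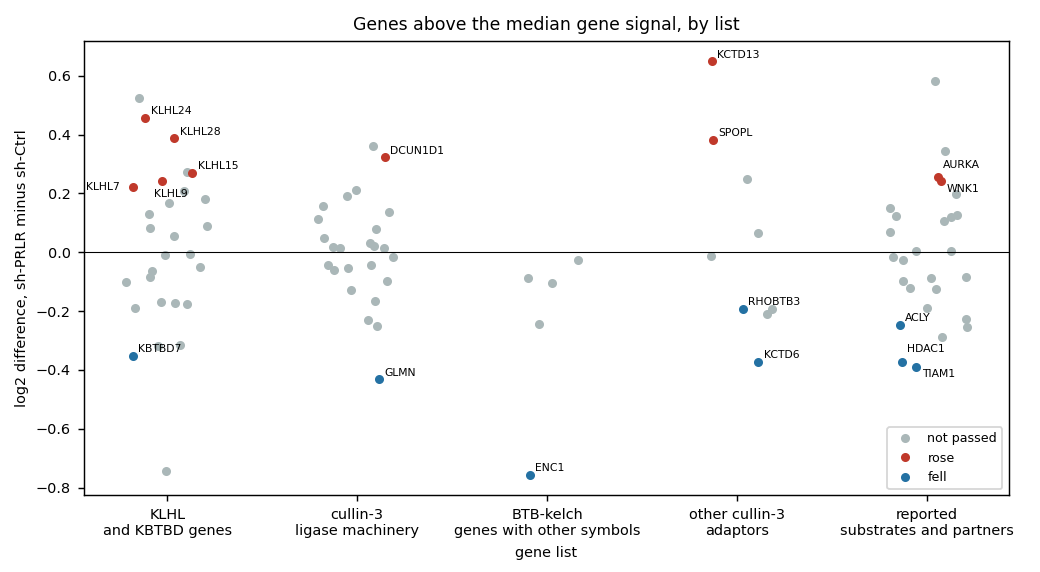
Each point is the log2 difference (sh-PRLR minus sh-Ctrl) of a gene above the median gene signal, spread sideways at random within its list, with red for genes that rose and blue for those that fell. Most points of each list lie within 0.4 of 0, and ENC1 at -0.76 and KCTD13 at 0.65 stand farthest out among the genes that passed.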

How the data were processed

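Total RNA of 6 SW-1990 cultures was labelled with biotin and read on Affymetrix arrays, per the labels' protocols. The deposited values are log2 signals per probe set. Per the submitters' processing notes the tools were MAS5, RMA and affy, with no roles stated. The linear mean of every array, with 2% trimmed at each end, was 500, so the values were used as deposited. Probe sets were named through the platform annotation (41091 with 1 symbol after 62 control probe sets were left out). The main test was limma (version 3.58.1, R 4.3.3; lmFit, then eBayes with trend and robust), two-sided, with Benjamini-Hochberg adjustment over 19775 genes or 41091 probe sets. The test was also run on normal data simulated with its own fitted variances. Such data follow the model, so they cannot show whether that model suits these arrays. The main test used no pairing, since the labels do not say that a replicate number marks a shared culture or day. Deviations of same-numbered arrays correlated at -0.06, 0.06 and -0.10, which cannot show whether the cultures were paired. Members, lists and tests were chosen with earlier results of these data known. Per-array values are given for members that passed, the 12 smallest p-values, the 4 brightest and others that a comparison needs; of each further list, up to 6 genes that passed are named. Other settings were default eBayes, quantile normalisation, median centring, a filter on the 40% dimmest genes, other probe set rules, a replicate block and each array left out. Figures used matplotlib 3.10.9.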

Additional observations from a re-analysis of the deposited data

How the results depend on the processing

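The number of arrays and the signal limit what can be seen: below the median gene the replicate SD had a median of 0.81 over the 14 members there, which hides small differences there. No background or detection call was used. With the main test, 10 of 98 single probe sets of members passed, against 4.67% of all probe sets with 1 symbol. Of these 10, KLHL24 had 3, KLHL28 had 2 and KLHL5 had 2, so they do not stand for separate genes. With default eBayes settings the counts were 4 of all genes and 0 of the 42 KLHL and KBTBD genes. They were also 0 for the machinery, the other BTB-kelch genes, the other adaptors, the substrates and the single probe sets. Median centring gave 506 of all genes, 0 KLHL and KBTBD genes, 1 machinery gene, 0 other adaptors, 0 substrates and 3 single probe sets. The mean of all probe sets gave 609 of all genes, 3 members (KLHL15, KLHL24 and KBTBD7) and 1 substrate. Without _x_at and _s_at probe sets 1011 of 17098 genes passed, 2 substrates among them. Without the 40% dimmest genes 2026 of 11865 genes passed, with 4 machinery genes and 7 of 30 members, KBTBD8 being added. With the replicate number as a block, 1090 of all genes and 3 members passed (KLHL24, KLHL36 and KBTBD7). That setting gave 2 other adaptors, 3 substrates and 4 single probe sets. Quantile normalisation called 1545 of all genes and the same 6 members. Leaving out 1 array gave 665 to 1322 of all genes, 0 to 4 members, 1 to 3 machinery genes, 1 other BTB-kelch gene each time, 1 to 3 other adaptors, 1 to 3 substrates and 3 to 5 single probe sets. The median difference of members then ran from -0.022 to 0.127. KLHL5, near 0 by its brightest probe set, was 0.0017 without sh-PRLR replicate 2, 0.02 without sh-PRLR replicate 3 and 0.037 without sh-Ctrl replicate 1, within a range of -0.050 to 0.037 over the arrays left out. KLHL12 was 0.041 without sh-PRLR replicate 3 and 0.013 without sh-Ctrl replicate 3, within a range of -0.040 to 0.041. The 6 changed members kept their sign in all 13 other settings. The cause of the losses was not tested. Where an array was dropped, the effect of fewer arrays and that of the array itself cannot be told apart. The settings for single probe sets were added after seeing the data.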
